A study of Homo sapiens with 36 samples.

Results

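Described here are 54 genes of mitosis and the spindle in WiT49 cells, an established line from an anaplastic Wilms tumor (a childhood kidney cancer with abnormal mitotic figures). The members come from a list of gene symbols with no cutoff on measured values, but the list was chosen with earlier results of these data known. Ensembl identifiers without their version were matched to GENCODE release 29 symbols. All 54 listed genes were found among the 58219 genes of the RNA tables and the 43582 genes of the footprint tables. The cells were cultured with 2 nM actinomycin D (actD) or with the solvent dimethyl sulfoxide (DMSO) as vehicle. ActD inserts into DNA and stalls RNA polymerases, at low doses mainly RNA polymerase I, which makes ribosomal RNA. Exposure lasted 6 h, 72 h or 2 weeks. The 2-week course had 2 cycles of 7 days, and in each cycle 3 days with drug (or vehicle) preceded 4 days without either. Total RNA and ribosome footprints, the messenger RNA pieces covered by ribosomes, were sequenced in 3 libraries per group, 36 in all. All groups are the same line, grown in medium with serum, with no genetic change named by the labels. Nothing in the labels says whether replicates were separate cultures, so p-values measure the spread between these libraries, which may be technical.

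For RNA at 2 weeks, the title and treatment field of each library give the opposite arm from its library name, which is also its column in the table. These libraries are therefore called "named actd" and "named dmso" by their library names throughout, and every 2-week RNA difference below changes sign if the titles are right.

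In mitosis, cyclin B with its kinase CDK1 starts chromosome condensation and spindle assembly. Kinetochores attach chromosomes to microtubules, the checkpoint holds the cell until all are attached, and the anaphase-promoting complex then triggers separation and exit. Most of these genes are transcribed late in the cell cycle. In these bulk libraries, fewer dividing cells and less RNA per dividing cell cannot be told apart.

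RNA libraries held 40221994 to 69240041 counts and footprint libraries 152556 to 1281039. The members took 0.22% to 0.754% of RNA counts. A footprint library held only 101 to 1334 member counts, with 14 to 37 of the 54 members listed at 0, and a 0 in such a file may also be a failed estimate. In the 72 h RNA, the blastemal genes LIN28B (294 to 429.8 CPM) and MYCN (44.3 to 85.9 CPM) were high, WT1 was at 3.77 to 10.1 CPM, and SIX2 and CITED1 were at most 0.51 and 0.45 CPM. The collagen gene COL1A1, which marks stroma, was at 379.7 to 818 CPM. Of the markers of cells the culture should not hold, ALB (liver) was at 0 in all 6 libraries, PECAM1 (endothelium) was at most 0.037 CPM and PTPRC (leukocytes) at most 0.42 CPM. CPM here means counts scaled to a common library size after TMM scaling, which corrects the totals for composition.

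At 72 h both replicate 3 RNA libraries stood apart for these genes. DMSO replicate 3 was the lowest of its arm in 52 of the 54 members, and actD replicate 3 was the lowest of its arm in 46 of 54. The members' share of counts was 0.652%, 0.745% and 0.374% in DMSO replicates 1 to 3, and 0.441%, 0.501% and 0.333% in those with actD. The footprint library of DMSO replicate 3 at 72 h was also the shallowest, with 101 member counts. For the members in RNA at 72 h, the number lower, the count at an unadjusted p under 0.05, medians and role groups are given with and without these libraries. So are some single genes. The count of members with no overlap and the values of genes outside the 54 are given only with them.

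Many promoters of mitotic genes carry a short element called the CHR, with the core TTTGAA, and CCAAT boxes bound by the factor NF-Y. The CHR is the site of the DREAM complex, which silences these genes in resting cells, and of the MuvB, B-MYB and FOXM1 complexes that activate them. RefSeq promoters of GRCh38.p14, 300 bases from 250 before to 50 after the start, were on hand for 48 of the 54 members. TTTGAA, read on either strand (TTCAAA on the other), occurred in 37 of 48 (77.1%) against 15.8% of 14896 protein-coding genes. CCAAT (or ATTGG) occurred in 38 of 48 (79.2%) against 42.3%, and both in 1 promoter in 28 of 48 (58.3%) against 6.59%. The other 4 of the 6 motifs searched were TTTAAA, in 16 of 48 (33.3%) against 12.7%, TTCGAA, in 2 (4.17%) against 2.15%, TTTGAAA, which holds the core, in 20 (41.7%) against 6.49%, and GGCGGG, in 40 (83.3%) against 65.3%. Members are known cell cycle genes, so these shares describe the list and not the drug.

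The promoters printed here are 4, chosen after the values were seen: CKAP5 and KIF4A, whose footprints passed the test at 72 h, CCNB2, which has 1 core and 4 CCAAT boxes, and CCNB1, which has 2 CCAAT boxes and no TTTGAA in this window. Capitals mark TTTGAA or CCAAT on either strand, and each is written 5′ to 3′ on the gene's strand. CKAP5 lies at chr11:46846231-46846530 (minus strand), KIF4A at chrX:70289854-70290153 (plus), CCNB2 at chr15:59104896-59105195 (plus) and CCNB1 at chr5:69166900-69167199 (plus).
CKAP5: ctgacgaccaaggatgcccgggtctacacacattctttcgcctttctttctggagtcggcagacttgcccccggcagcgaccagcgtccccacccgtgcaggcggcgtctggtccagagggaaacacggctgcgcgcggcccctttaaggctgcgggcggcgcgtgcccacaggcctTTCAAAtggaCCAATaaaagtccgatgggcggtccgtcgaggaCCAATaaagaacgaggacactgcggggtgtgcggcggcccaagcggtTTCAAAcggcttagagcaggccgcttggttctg
KIF4A: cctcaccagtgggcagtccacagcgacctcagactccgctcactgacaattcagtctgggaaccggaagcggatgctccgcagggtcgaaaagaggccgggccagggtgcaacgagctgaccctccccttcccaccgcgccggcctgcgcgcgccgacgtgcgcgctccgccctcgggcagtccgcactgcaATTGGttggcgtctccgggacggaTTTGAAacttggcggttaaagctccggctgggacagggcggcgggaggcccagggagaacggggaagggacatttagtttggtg
CCNB2: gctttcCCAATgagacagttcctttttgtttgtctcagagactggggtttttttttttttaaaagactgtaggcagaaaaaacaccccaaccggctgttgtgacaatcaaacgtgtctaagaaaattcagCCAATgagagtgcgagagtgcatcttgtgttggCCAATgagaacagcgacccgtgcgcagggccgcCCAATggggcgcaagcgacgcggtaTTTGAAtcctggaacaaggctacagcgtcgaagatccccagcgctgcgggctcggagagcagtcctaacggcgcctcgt
CCNB1: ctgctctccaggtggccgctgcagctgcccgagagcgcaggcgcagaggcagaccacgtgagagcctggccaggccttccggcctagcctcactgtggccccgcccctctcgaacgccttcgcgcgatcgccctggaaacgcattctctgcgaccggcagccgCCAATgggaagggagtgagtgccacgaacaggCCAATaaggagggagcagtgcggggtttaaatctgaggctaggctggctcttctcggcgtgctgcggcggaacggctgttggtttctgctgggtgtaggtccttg
CKAP5 holds 2 cores and 2 CCAAT boxes in its 300 bases. The 37 members with TTTGAA had a median RNA log2 difference of -0.56 at 72 h and the 11 without had -0.42, a description with no test.

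After 72 h of actD, RNA of 48 of the 54 members was lower than in DMSO, and no member passed the test. The median log2 difference (actD minus DMSO) was -0.55, against 0.02 over all 21195 genes tested, 48.6% of which were lower. With edgeR (quasi-likelihood, p-values adjusted by Benjamini-Hochberg over all genes), 0 members had an adjusted p under 0.05 (background 0.00472%), and the smallest adjusted p was 0.276, for HMMR. At an unadjusted p under 0.05, 10 members were lower and 0 higher, against 7.78% of all genes lower and 5.27% higher. That count was 33 without DMSO replicate 3 (9.5% of all genes) and 34 without both replicate 3 libraries (15.2%). It was 2 without DMSO replicate 2 (7.32%). It was 3 without DMSO replicate 1, 4 without actD replicate 1 and 5 without actD replicate 2 or 3, where the share of all genes is not given. In 7 members the actD libraries lay wholly below the DMSO libraries, against 10.3% of all genes, so that share is near the background. DESeq2 called 0 members (2.87% of all genes). Leaving out 1 library at a time put the median between -0.73, without DMSO replicate 3, and -0.39, without actD replicate 3, with 0 calls each time. Of the 54 members, 50 were lower without DMSO replicate 3 and 42 without actD replicate 3. Without both replicate 3 libraries, a fit added after the data were seen, the median was -0.61 and 49 of the 54 members were lower. That fit called 7 members (2% of all genes tested): ANLN, KIF11, KIF2C, KIF4A, NCAPD2, NCAPG and SMC2. A single fit over all 18 RNA libraries called 3, CKAP5, NCAPD2 and PRC1, where 4.89% of all genes were called.

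**Figure D1:**
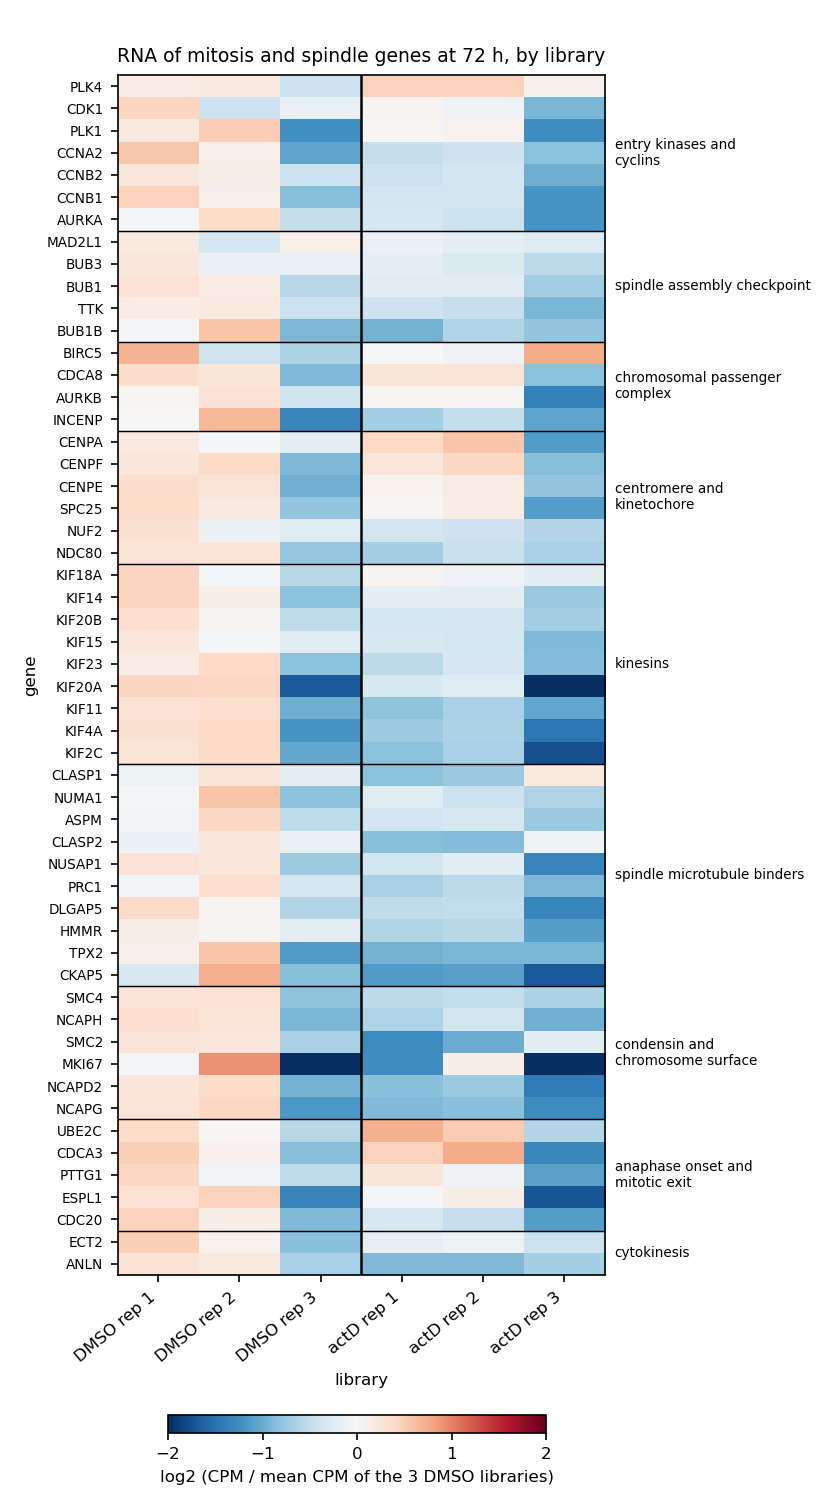
Each row is 1 of the 54 genes and each column 1 RNA library at 72 h, grouped by role; colour gives log2 of the library's CPM over the mean CPM of the 3 DMSO libraries, from -2 to 2 (values beyond are drawn at the ends). DMSO replicate 3 is low across most rows, and the lowest of its arm in 52 of 54.

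The spindle microtubule binders, which nucleate, bundle or cap spindle fibres, were all lower at 72 h (10 of 10, median log2 difference -0.63, 0 called). They are CKAP5, TPX2, HMMR, DLGAP5, PRC1, NUSAP1, CLASP2, ASPM, NUMA1 and CLASP1, from -1.27 to -0.38. The group's median was -0.83 without DMSO replicate 3, -0.59 without actD replicate 3 and -0.74 without both, with 10 of 10 lower each time. CKAP5 (chTOG), a polymerase that adds tubulin to microtubule plus ends, is on chromosome 11 from 46743048 to 46846308 (GRCh38). HMMR, a spindle pole protein and hyaluronan receptor, stood at 147, 141 and 120.6 CPM in DMSO and 89.3, 92.2 and 63.8 CPM in actD. The HMMR groups did not overlap, and its log2 difference was -0.74 (SE 0.21, edgeR adjusted p = 0.276). PRC1, which bundles the midzone microtubules of anaphase, was at 101, 132 and 82.7 CPM in DMSO and 66.8, 73.4 and 56.2 CPM in actD (log2 -0.68, SE 0.23, edgeR adjusted p = 0.309). CLASP1, which stabilises microtubule ends, was highest of the group at log2 -0.38, with 89.6 CPM in actD replicate 3 above 44.1 and 46.7 in the other actD libraries. Without that library the CLASP1 difference was -0.79, and without both replicate 3 libraries -0.89.

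The condensin and chromosome surface genes were lower in 6 of 6 (median -0.76, 0 called). Condensin (SMC2, SMC4, NCAPD2, NCAPG and NCAPH) compacts chromosomes, and MKI67 (Ki-67) coats them and is the usual marker of dividing cells. NCAPG was at 94.1, 103.6 and 34.9 CPM in DMSO and 42, 43.3 and 32.6 CPM in actD (log2 -0.98, SE 0.39, edgeR adjusted p = 0.354). NCAPD2 was at 213, 232 and 93.6 CPM in DMSO and 101, 107.4 and 67.8 CPM in actD (log2 -0.96, SE 0.36, edgeR adjusted p = 0.34). In both genes DMSO replicates 1 and 2 lay above every actD library, and DMSO replicate 3 lay within the actD range. MKI67 varied widely, at 157, 299 and 21.5 CPM in DMSO against 67.2, 176 and 39.3 CPM in actD, so its groups overlapped fully. SMC4 was the highest of the group, at log2 -0.54, and at -0.83 without DMSO replicate 3. All 6 were lower without DMSO replicate 3 (median -1.14), without actD replicate 3 (-0.65) and without both (-1.02).

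The kinesins, motors that move along or take apart microtubules, were lower in 9 of 9 (median -0.56, 0 called): KIF2C, KIF4A, KIF11, KIF20A, KIF23, KIF15, KIF20B, KIF14 and KIF18A, from -1.0 to -0.07. KIF2C, which takes apart wrongly attached microtubules, was at 95.5, 103.9 and 38.9 CPM in DMSO and 44.8, 50.4 and 23.5 CPM in actD (log2 -1.0, SE 0.43, edgeR adjusted p = 0.376). KIF18A, which dampens chromosome movements, was at log2 -0.07 and turned to 0.19 without DMSO replicate 1. The kinesin median was -0.85 without DMSO replicate 3, -0.35 without actD replicate 3 and -0.71 without both, with 9 of 9 lower each time. In the checkpoint group, BUB1B, TTK, BUB1, BUB3 and MAD2L1 were all lower (5 of 5, median -0.36), from -0.77 for BUB1B (BubR1) to -0.19 for MAD2L1, and none was called. All 5 were also lower without DMSO replicate 3 (median -0.58), without actD replicate 3 (-0.25) and without both (-0.44), while BUB1B was at -0.39 without DMSO replicate 2 and MAD2L1 ran from -0.34 to -0.10 with 1 library left out.

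Of the kinases and cyclins that start mitosis, 6 of 7 were lower (median -0.56): AURKA, CCNB1, CCNB2, CCNA2, PLK1 and CDK1, from -0.61 to -0.25. AURKA, the centrosome kinase, was at 103.6, 136 and 75.2 CPM in DMSO and 82.1, 77.6 and 46.1 CPM in actD. PLK4, which starts centriole duplication before mitosis, was instead at 41.8, 42.4 and 28.3 CPM in DMSO and 51.7, 51.3 and 39.7 CPM in actD (log2 0.34, SE 0.23). The PLK4 groups overlapped only through actD replicate 3, and the difference was 0.17 without DMSO replicate 3. The group's median was -0.75 without DMSO replicate 3, -0.38 without actD replicate 3 (5 of 7 lower) and -0.59 without both. AURKA, at -0.61, was at -0.39 without DMSO replicate 2.

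The remaining groups were mixed at 72 h. Of the kinetochore genes, NDC80 (-0.59), NUF2, SPC25 and CENPE were lower, while CENPF (0.03) and CENPA (0.11), the histone H3 variant of centromeres, were not. The chromosomal passenger complex, which corrects attachments, had INCENP (-0.72), AURKB and CDCA8 lower and BIRC5 (survivin) at 0.28. The group listed here as exit genes had CDC20 (-0.59), the activator of the anaphase-promoting complex, ESPL1 and PTTG1 lower. CDCA3 (0.21) and UBE2C (0.31) were higher in it, and CDCA3 is counted there by this list only. BIRC5 was high in actD replicate 3 (72.9 CPM, against 43.9 and 41.6 in the other actD libraries), and without that library its difference was -0.031. Without actD replicate 3 the medians of these 3 groups were 0.097 for kinetochore, -0.0077 for passenger complex and 0.093 for exit genes, and only 2 of 6, 2 of 4 and 1 of 5 were lower. Without DMSO replicate 3 the medians were -0.47, -0.41 and -0.40, and without both -0.20, -0.21 and -0.11. INCENP was at -0.22 without DMSO replicate 2 and -1.10 without DMSO replicate 3. CDC20 was at -0.31 without DMSO replicate 1 and -0.89 without DMSO replicate 3, and UBE2C at 0.043 without actD replicate 1 and 0.61 without actD replicate 3. Both cytokinesis genes were lower. ANLN, a scaffold of the contractile ring, was at 237, 222 and 123.6 CPM in DMSO and 105, 105.5 and 122 CPM in actD (log2 -0.81, SE 0.27, edgeR adjusted p = 0.308), and ECT2, which activates RhoA there, was at -0.23. ECT2 turned to 0.065 without DMSO replicate 1, and the median of both genes was -0.79 without DMSO replicate 3, -0.51 without actD replicate 3 and -0.78 without both.

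Levels were also divided by the merged length of all annotated exons of a gene. On that scale the most abundant members in vehicle at 72 h were CCNB1, PTTG1 (securin) and CDC20. They stood at 78.3 ± 32.7, 77 ± 24.5 and 62.8 ± 26.6 CPM per kb (SD, n = 3). These 3 levels lie within their spread of each other. The least abundant were NUMA1 at 5.21 ± 2.35, CDCA3 at 4.08 ± 1.71 and CLASP2 at 3.15 ± 0.45 CPM per kb. Their merged exons span 15224, 5653 and 15211 bases, against 7343, 2760 and 7282 in the longest coding transcript. For CCNB1, PTTG1 and CDC20 these are 2558, 2013 and 2038 against 2169, 1070 and 1777 bases. The order therefore depends on the length used, and an order by transcript length is not given.

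At 6 h the members as a group were near the level of the vehicle: 30 lower and 24 higher, with a median of -0.05 against 0.02 over 22669 genes, 47% of which were lower. edgeR called 0 members and 0% of all genes, with 7 members lower and 0 higher at an unadjusted p under 0.05 (4.54% of all genes lower and 3.67% higher). DESeq2 called 3 members (0.869% of all genes): CKAP5, CLASP1 and TPX2, all spindle binders. CLASP1 was at 96.7, 98.8 and 101 CPM in DMSO and 69.5, 71.3 and 62.2 CPM in actD (log2 -0.55, SE 0.11, edgeR adjusted p = 0.239). TPX2, which carries Aurora A to the spindle, was at 275, 307 and 250.2 CPM in DMSO and 186, 205.5 and 135 CPM in actD (log2 -0.66, SE 0.17, edgeR adjusted p = 0.433). In both genes the groups did not overlap, as in 8 members lower (8.17% of all genes) and 1 higher, CDK1 (7.66%). The highest difference was that of CENPF, at 0.49, where DMSO replicate 1 was low (154 CPM, against 361 and 325 in the other DMSO libraries).

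**Figure D2:**
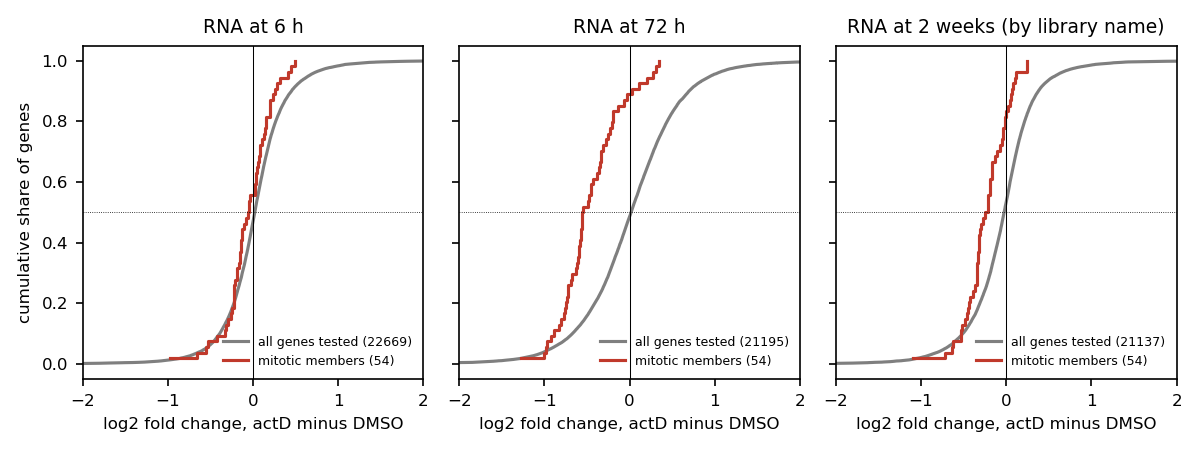
Cumulative share of genes (y axis) against the RNA log2 fold change, actD minus DMSO (x axis), at 6 h, 72 h and 2 weeks, for the 54 members (red) and all genes tested (grey). At 72 h the members' median is -0.55 and that of all genes 0.02.

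Whether the effect of actD differed between 6 h and 72 h was tested as an interaction over these 12 RNA libraries. The difference of the effects (72 h minus 6 h) was below 0 in 49 of 54 members, against 52.1% of 24251 genes, with a median of -0.48. edgeR called 0 of them (0.0165% of all genes), and 5 had an unadjusted p under 0.05, against 5.18% of all genes lower and 2.84% higher: NUF2 (-0.67), KIF20B (-0.92), SMC2 (-1.0), KIF15 (-0.67) and PRC1 (-0.58). DESeq2 also called 0.

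At 2 weeks, RNA was lower in the libraries named actd than in those named dmso in 45 of 54 members, with a median of -0.23 against -0.02 for all genes, of which 53.2% were lower. edgeR called 0 members and 0% of 21137 genes. At an unadjusted p under 0.05, 12 members were lower and 0 higher, against 4.93% of all genes lower and 4% higher. That count was 30 without replicate 1 named actd (6.54% of all genes) and 6 without replicate 3 named actd (2.73%). Without any one of the other libraries it was 7 or 8, where the share of all genes is not given. The groups did not overlap in 10 members lower (7.83% of all genes) and 3 higher (7.86%). TPX2 was at 86.7, 90.7 and 91.7 CPM in the libraries named dmso and 72.9, 39.6 and 51.2 CPM in those named actd (log2 -0.72, SE 0.21, edgeR adjusted p = 0.433). CLASP1 was at 92.3, 87.9 and 96.1 CPM against 77.6, 53.9 and 59.8 CPM in those named actd (log2 -0.53, SE 0.15, edgeR adjusted p = 0.431). Replicate 1 named actd was the nearest to the dmso libraries in both genes. Under the titles the median is 0.23 and these genes are higher in actD.

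Footprints at 72 h passed the filter for 19 of the 54 members, of which 13 were lower (median -0.60, against 0.07 over 2426 genes, 47.2% lower). With 1 library left out that median ran from -1.15 (without actD replicate 2) to -0.33 (without DMSO replicate 2), over 19 to 29 members. In the main fit edgeR called 2 members, CKAP5 and KIF4A, as lower in footprints (3.79% of all genes). Their calls were both at an adjusted p of 0.0473, close to the threshold. KIF4A, a kinesin of the chromosome arms and midzone, had 32, 19 and 4 footprint counts in DMSO and 17, 7 and 15 in actD, or 72.4, 63.7 and 49.7 CPM against 25.4, 19 and 17.8 CPM. The KIF4A groups did not overlap on the CPM scale (log2 -1.62, SE 0.32). By unscaled library totals, KIF4A passed the filter on low counts only through its DMSO libraries. Neither its call nor this gap is therefore independent of the filter. KIF4B, a near-identical copy of KIF4A, may share its reads, and the counting is not stated. Both calls were lost with library totals, with the replicate block and without each library in turn except actD replicate 3. Without that library 4 members were called, where the share of all genes is not given. DESeq2 called CKAP5 and SMC4 (4.41% of all genes), and put KIF4A at an adjusted p of 0.103.

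SMC4 footprints numbered 89, 61 and 8 counts in DMSO and 22, 15 and 57 in actD. On the CPM scale these were 201, 205 and 99.5 against 32.8, 40.8 and 67.8 (log2 -1.86, SE 0.44, edgeR adjusted p = 0.0595). The groups did not overlap on that scale, where the lowest DMSO value rests on 8 counts. At an unadjusted p under 0.05, 6 members were lower and 0 higher, against 13.1% of all genes lower and 14.2% higher. Besides the 3 above they were KIF11 (-2.08), the motor that pushes spindle poles apart, with 39, 28 and 0 counts in DMSO and 4, 3 and 27 in actD, NCAPD2 (-1.33) and CCNB1 (-2.67), with 51, 30 and 2 counts against 26, 0 and 0. The CCNB1 difference rests on actD replicate 1, the only actD library not listed at 0, so no fold is given without it, and KIF11 was at -3.30 without actD replicate 3. UBE2C, the ubiquitin carrier of the anaphase-promoting complex, had 2, 6 and 0 counts in DMSO and 18, 10 and 17 in actD (log2 1.29, SE 0.66, edgeR adjusted p = 0.242). In the 72 h footprints as a whole, 3 tested members were lower with no overlap (16.2% of all genes) and UBE2C was higher with none (19.5%). CENPF, which binds kinetochores and is among the members with the most vehicle footprints, had 25 to 215 counts in the DMSO libraries and 185 to 374 in the actD libraries (log2 0.23). After scaling it was at 311 to 486 CPM in DMSO and 220 to 579 CPM in actD, so the CENPF groups overlapped.

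**Figure D3:**
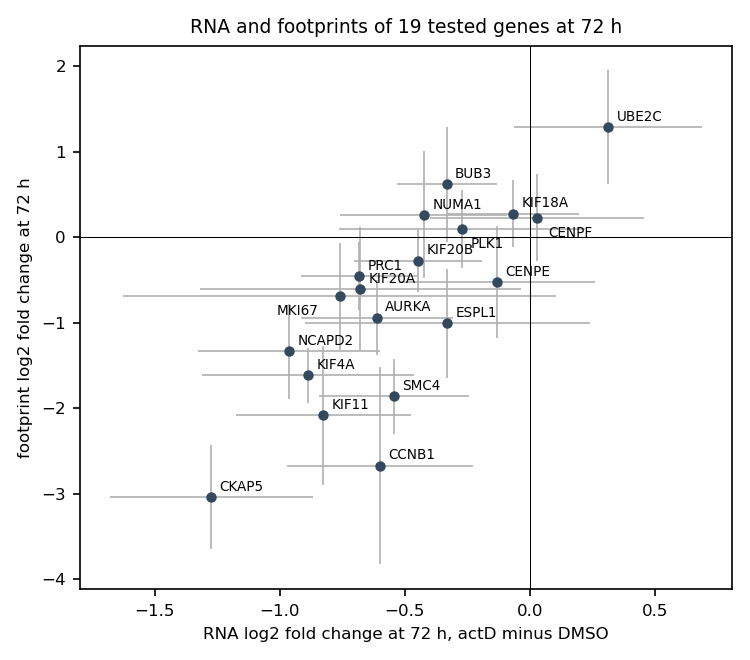
Footprint log2 fold change (y axis) against RNA log2 fold change (x axis), actD minus DMSO at 72 h, for the 19 members tested in footprints; bars are the standard errors of the edgeR fits. CKAP5 lies lowest on both axes, at -1.27 in RNA and -3.04 in footprints, and UBE2C highest in footprints at 1.29.

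At 6 h, 11 members passed the footprint filter and 9 were lower (median -0.56, against 0.11 over 1212 genes). edgeR called 0 members and 0% of all genes, and 2 were lower with an unadjusted p under 0.05 (1.9% of all genes) and 0 higher (1.24%). These were MKI67 and CKAP5, both called by DESeq2 (0.825% of all genes). The groups did not overlap in 3 of the 11, all lower (5.69% of all genes), and in 0 higher (3.71%). MKI67 had 89, 77 and 56 footprint counts in DMSO and 8, 12 and 18 in actD (log2 -1.92, SE 0.49, edgeR adjusted p = 0.889). At 2 weeks 8 members passed and 6 were lower. edgeR called 0 of them and 0% of 1598 genes, and DESeq2 called 0. With an unadjusted p under 0.05, CKAP5 (-1.93), MKI67 (-1.42) and SMC4 (-0.81) were lower (4.51% of all genes) and NUMA1 (1.46) higher (4.07%). Among the 8 tested members, these 4 were also the ones whose groups did not overlap, 3 lower (6.57% of all genes) and 1 higher (8.32%). NUMA1, which anchors microtubules at the poles, had 7, 7 and 11 footprint counts in DMSO and 43, 16 and 14 in actD, and its difference was 0.83 without actD replicate 1. Titles and library names of the 2-week footprint libraries do not contradict each other.

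CKAP5 was in the named set by the rule for single genes, and it is set out in full because it was the lowest member in RNA at each time, a choice made after its values were seen. CKAP5 RNA at 6 h was at 282, 314 and 319.9 CPM in DMSO and 165, 174 and 128 CPM in actD (log2 -0.97, SE 0.15, edgeR adjusted p = 0.122), and ranked 28 of 22669 genes by p. At 72 h it was at 161, 327 and 109.9 CPM in DMSO and 90.5, 93.9 and 62.5 CPM in actD (log2 -1.27, SE 0.40, edgeR adjusted p = 0.293), ranking 1034 of 21195. Without DMSO replicate 2 that difference was -0.72, and without both replicate 3 libraries -1.42. In the 2-week RNA it was at 155, 169 and 138 CPM in libraries named dmso and 107.6, 50.5 and 58.1 CPM in those named actd (log2 -1.10, SE 0.27, edgeR adjusted p = 0.399). The groups did not overlap in any of these 3 tables, and DESeq2 called the 6 h and 2-week differences (at 2 weeks 0.894% of all genes).

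CKAP5 footprints numbered 161, 126 and 62 counts in DMSO and 23, 23 and 15 in actD at 6 h, or 164, 163.6 and 163 CPM against 47.5, 60.9 and 33.7 CPM (log2 -1.78, SE 0.46, edgeR adjusted p = 0.889). At 72 h they numbered 89, 159 and 13 in DMSO and 17, 10 and 47 in actD, or 201, 533 and 162 CPM against 25.4, 27.2 and 55.9 CPM (log2 -3.04, SE 0.61, edgeR adjusted p = 0.0473). At 2 weeks they numbered 57, 94 and 37 in DMSO and 25, 12 and 12 in actD (log2 -1.93, SE 0.39, edgeR adjusted p = 0.527). On the CPM scale the groups did not overlap at any of the 3 times. RNA and footprint libraries may come from the same cultures, so the 2 assays are not independent repeats.

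**Figure D4:**
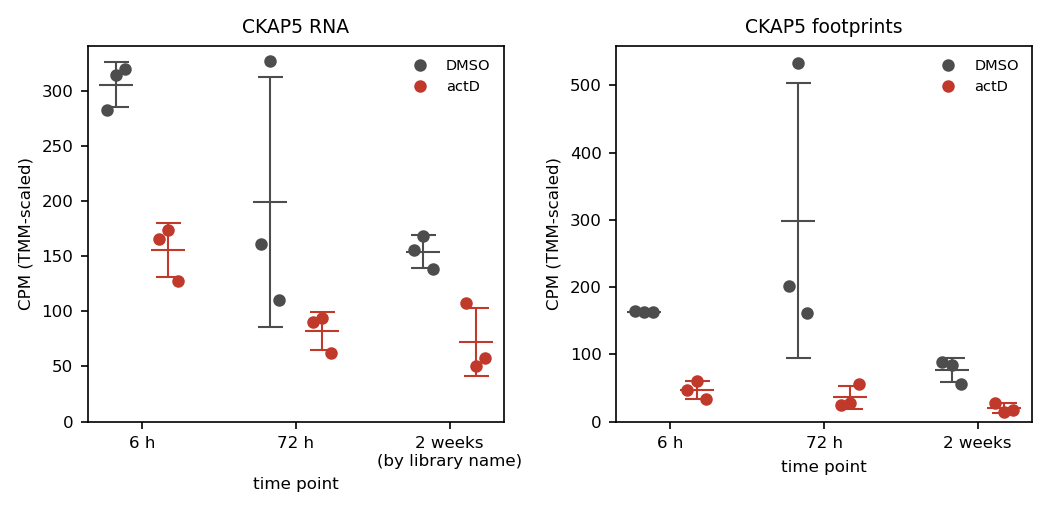
CKAP5 in CPM after TMM scaling in each library (points; y axis from 0) by time point, for RNA (left) and footprints (right); horizontal marks are means of 3 libraries and bars SD. ActD libraries lie below all DMSO libraries in each table, with the 2-week RNA grouped by library name.

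Translational efficiency, the footprint level relative to RNA, was tested as the interaction of assay and treatment. edgeR called 0 of 11 members at 6 h (0% of 951 genes), 0 of 19 at 72 h (0.433% of 2311) and 0 of 8 at 2 weeks (0% of 1441). DESeq2 called 0 at each time (0.105%, 2.55% and 0.0694% of all genes). At an unadjusted p under 0.05, MKI67 was lower at 6 h (-1.68; 2.31% of all genes lower and 2.94% higher), and SMC4 (-1.52) and CKAP5 (-1.96) were lower at 72 h (5.76% and 9.17%). CKAP5 was at -1.26 without footprint DMSO replicate 2. At 2 weeks MKI67 was lower (-0.95; 2.43%) and NUMA1 higher (1.36; 2.71%). With RNA groups from the titles, 2 members were called at 2 weeks, MKI67 and CKAP5, and 1.87% of all genes.

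A further 120 genes of mitosis that are not members were compared at 72 h. RNA was lower in 85 of the 119 tested, with a median of -0.19, 0 called and 11 (9.24%) lower at an unadjusted p under 0.05, near the 7.78% of all genes. By list, cohesin and other condensin genes were lower in 11 of 13 (median -0.49), further spindle and centrosome genes in 28 of 33 (-0.28), transcription regulators such as FOXM1 and LIN54 in 10 of 11 (-0.12), anaphase-promoting complex genes in 11 of 16 (-0.14), entry regulators in 7 of 12 (-0.10) and further kinetochore genes in 18 of 34 (-0.02). MAD1L1, the checkpoint partner of MAD2L1, was at 26.9, 38.8 and 18.7 CPM in DMSO and 9.8, 11.4 and 14.9 CPM in actD (log2 -1.22, SE 0.31, edgeR adjusted p = 0.263). The replication licensing and fork genes, which act in S phase before mitosis, were lower in 20 of 21 (median -0.83, 0 called, 10 with an unadjusted p under 0.05, against 7.78% of all genes lower). MCM6, of the replicative helicase, was at 115.5, 139 and 51.6 CPM in DMSO and 29.8, 33.8 and 35.3 CPM in actD (log2 -1.63, SE 0.35, edgeR adjusted p = 0.235).

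Counts of 29 members may take in reads of other genes. These overlap another gene's exons, such as CENPA with SLC35F6 or HMMR with HMMR-AS1, or have a copy named after them, such as UBE2C and MKI67. Library kits kept the strand, per the labels, but whether counting used it is not given in the sources used here.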

How the data were processed

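The authors deposited 6 tables of estimated counts per gene, 1 for each assay and time. HISAT2, StringTie and the hg38 build are named in the submitters' processing notes, with no version or order. Small values in the 6 h and 2-week RNA tables pile up at steps of 2.7 and 2.68 counts, judged with a cutoff set after the values were seen. The estimated counts were rounded to whole numbers, and symbols came from GENCODE release 29. Extraction and library kits are given as alternatives in the labels' protocols, with no sample named, so kit batches could not be separated.

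Each assay and time was fitted alone (3 against 3 libraries) with edgeR 4.0.16 in R 4.3.3: TMM, filterByExpr, quasi-likelihood test, two-sided, Benjamini-Hochberg adjustment over all genes tested, threshold 0.05. Alternatives included DESeq2 1.42.0. The simple fit of actD against DMSO was run on simulated counts for RNA and footprints at 72 h, with no result given here. The interaction fits were not run on simulated counts. Members and lists were chosen with earlier results of these data known. Named genes were, by rule, the extremes of each role group in RNA at 72 h, the smallest p-values, members with p under 0.05 in footprints or efficiency, and the extremes of abundance; others named in the text were chosen after their values were seen. Of 6 promoter motifs searched, all are given; they were chosen after the data were in hand.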

Additional observations from a re-analysis of the deposited data

How the results depend on the processing

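Counts of called members moved as follows. DESeq2 called 3 in RNA at 6 h, 1 in RNA at 2 weeks and 2 in footprints at 6 h, where edgeR called 0. In RNA at 72 h, 1 fit over the 18 RNA libraries called 3, and leaving out both replicate 3 libraries, chosen after seeing the data, called 7. In footprints at 72 h, where 2 were called, library totals and the replicate block each gave 0, and leaving out 1 library gave 0 to 4. With no filter on low counts 3 were called there, CKAP5, TPX2 and CDK1, but not KIF4A. CDK1 had 0 counts in each DMSO library and 42, 0 and 0 in actD. A single fit over the 18 footprint libraries called CKAP5 and KIF4A at 72 h. Efficiency at 72 h gave 0 to 1 calls with 1 library left out, and at 2 weeks the titles gave 2. For efficiency at 72 h with 1 library left out, the share of all genes called is not given. The same holds for the alternative footprint fits at 72 h other than DESeq2. Those counts are not read as results about the members. With library totals in place of TMM the members' median log2 difference was -0.38 in RNA at 2 weeks, -1.29 and -0.27 in footprints at 6 h and 2 weeks, and -1.29 and 0.22 in efficiency at 6 h and 2 weeks. This scaling moved all genes too: their medians in the same order were -0.18, -0.61, -0.14, -0.79 and 0.27. With no filter it was -1.03 and -0.50 in footprints and -1.03 and -0.37 in efficiency at those times, over more members. One fit over the 18 footprint libraries gave -0.72 at 2 weeks. The titles gave 0.23 in RNA and -0.34 in efficiency at 2 weeks. With 1 library left out, the median ranged from -0.79 to -0.25 in footprints at 6 h, from -1.15 to -0.33 in footprints at 72 h, from -0.65 to -0.16 in efficiency at 6 h, from -0.35 to -0.089 in footprints at 2 weeks, from -0.28 to -0.031 in efficiency at 2 weeks, and from -0.69 to -0.26 for the RNA effect at 72 h against 6 h; its sign changed only in RNA at 6 h (-0.09 to 0.02) and efficiency at 72 h (-0.85 to 0.13). The cause of these shifts was not tested. The main fits did not pair the arms by replicate number. In RNA at 72 h, deviations of same-numbered libraries from their arm's mean correlated at 0.06, 0.27 and 0.16. Those of differently numbered libraries correlated at -0.23 to 0.006. Same-numbered values were -0.10, -0.05 and -0.09 at 6 h, and 0.02, -0.04 and 0.13 in the 2-week RNA. The replicate block gave a median of -0.46 in RNA at 72 h with 0 calls. Whether libraries of 1 number share a culture or preparation was not tested. Of the 54 members, 15 changed sign in RNA at 72 h in at least 1 alternative, at most 8 in any one (without actD replicate 3). Among the genes named by rule, CENPA turned to -0.038 with the block. With 1 library left out CENPA ran from -0.17 to 0.47, and was at -0.067 without actD replicate 1. BIRC5 ran from -0.031 to 0.77 with 1 library left out and was at -0.26 without both replicate 3 libraries. ECT2 (-0.52 to 0.065) and KIF18A (-0.29 to 0.19) also changed sign with 1 library left out. So did MKI67 (without DMSO replicate 2) and PTTG1 (without DMSO replicate 1 or actD replicate 3). CDCA3 changed sign without DMSO replicate 3 or actD replicate 2, and CENPF without DMSO replicate 3 or actD replicate 1 or 2. With few footprint counts, members that failed the filter were not testable at this depth.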

Other observations

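At 6 h, members with GC-rich transcripts tended to have the lower RNA differences. Spearman's rho between the GC content of the longest coding transcript and the 6 h log2 difference was -0.49 across the 54 members and -0.26 across 14837 protein-coding genes, with no p because genes of 1 set of libraries share depth and preparation. At 72 h rho was -0.02 over the members, and in the 2-week RNA, by library name, it was 0.06. The members' transcripts had a median GC content of 42.55% against 49.45% for all coding genes in the 6 h comparison. Gene span gave a rho of -0.21 over the members at 72 h and -0.30 over 14306 coding genes, so the longer genes tended to be lower in both. In the 2-week RNA, by library name, it was -0.26 over the members and -0.12 over all coding genes. At 6 h the signs differed, with 0.06 over the members and -0.11 over all coding genes. The part of GC content and gene length in the members' differences was not tested.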
